A study of Drosophila melanogaster with 30 samples.

Results

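The first 2 h of waking past the usual bedtime were examined in the fly brain as the difference between flies kept awake from ZT14 to ZT16 and flies killed at ZT14, where ZT counts the hours from lights-on. The members are the 3 arrays titled as 2 h of deprivation and the 3 arrays titled as ZT14 at 0 h, 6 of the 30 arrays of the series, chosen by their titles and not by their values. All flies were virgin Canton-S females, a wild-type strain of Drosophila melanogaster, 5 days old, housed 50 to a vial with 12 h of light at 25 °C and killed in hot water. The deprived flies were kept awake by manual stimulation of their monitors for 2 h and killed at ZT16. Sleeping flies of the same experiment were left undisturbed and also killed at ZT16, and the ZT14 flies were killed undisturbed as their consolidated sleep was about to begin. In a second experiment, stimulated flies were handled from ZT10 to ZT14, within the normal active period, wake flies were left undisturbed to ZT14, and a start group was killed at ZT10. Each array held RNA of its own pool of 139 to 193 whole brains, so each value averages over all brain cells, and fewer cells of a type cannot be told apart from less RNA per cell. Arrays of a group are biological replications by the submitters' account.

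Sleep need in flies builds up with time awake, and flies kept awake past their bedtime sleep more afterwards. Prolonged neuronal activity switches on a set of activity-regulated genes, among them transcription factors of the EGR and NR4A families, that are commonly read as traces of recent firing. Protein-folding genes, the circadian clock and immune peptides are the other groups of fly genes most often discussed with sleep loss. Because 2 h of clock time also passed, values of the flies that slept through the same hours are given beside those of the main genes and lists.

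Values are log2 expression after the authors' robust multi-array average (RMA), so a difference of 1 is a doubling of signal, and a level holds only within 1 probe set. Differences were fitted with limma and called at an adjusted p of 0.05 over 13966 probe sets, with SE after the sign ±. Array medians lay between 4.89 and 4.96 across the 30 arrays. Deprived 2 h replicate 2 stood apart. Its mean correlation with the other 8 arrays of the deprived 2 h, sleeping 2 h and ZT14 groups was 0.982, against 0.987 to 0.993 for those arrays. The next lowest, at 0.987, was deprived 2 h replicate 1. For deprived 2 h replicate 2, the 3′ minus 5′ signal of the actin control, a measure of RNA quality, was 2.70. It was 1.78 and 1.94 in the other deprived 2 h arrays and 2.12 to 2.16 in ZT14 arrays. Values of this control were 2.12 to 2.52 in sleeping 2 h arrays and 2.07 to 2.78 in active period arrays. The median of 11 neuron markers in deprived 2 h replicate 2 stood at -0.72 relative to the ZT14 mean, against 0.01 and -0.17 in deprived replicates 1 and 3. Many list values and gene differences moved without it, and those that moved most are also given without it. Deprived 2 h and ZT14 arrays shared no hybridisation run, so run and group can be separated only through other groups. All sleeping 2 h arrays shared a run with ZT14 replicates 1 and 2, and none shared a run with deprived 2 h arrays. ZT14 replicate 3 was hybridised in another run and scanned on another day. The deprived and sleeping comparisons with ZT14 therefore also differed in run, and the part of run in their values was not tested. Neuronal markers of the labelled tissue were present, with nSyb, a synaptic vesicle protein, at a mean of 7.68 and the glial factor repo at 6.25 over the arrays of the deprivation experiment.

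A single gene passed the test over the first 2 h of extended waking, the transcription factor gene sr. It was 1 of the 13966 probe sets tested, or 0.00716%, and it was higher in deprived flies. No probe set was called lower. Without deprived 2 h replicate 2, 6 probe sets were called. At an unadjusted p under 0.05, 968 probe sets (6.93%) were higher and 977 (7%) lower, together 13.9% of all. In the sleeping flies, no probe set was called by limma against ZT14, and 280 reached an unadjusted p under 0.05, 2% of all. Deprived and sleeping flies share the ZT14 arrays in these comparisons, and the direct comparison of deprived 2 h with sleeping 2 h again called sr alone, or 0.00716%, with 1164 probe sets at an unadjusted p under 0.05, 8.33% of all.

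The gene sr encodes Stripe, the fly's EGR-type zinc finger protein, a transcription factor known for tendon cell fate and used as a marker of recent neuronal activity in insects. Its signal was 8.19, 8.29 and 8.27 in the deprived 2 h arrays, against 6.14, 6.27 and 5.98 in the ZT14 arrays. The groups lay far apart and the deprived arrays were close to each other, at 8.25 ± 0.0540 in deprived flies and 6.13 ± 0.144 in ZT14 flies (SD, n = 3 each). The rise of sr was 2.12 ± 0.163, or 4.35-fold (limma adjusted p = 7.67e-07). It passed in all 20 alternative fits, at 2.05 to 2.58, and was 2.10 without deprived 2 h replicate 2. Within chip lots it was 2.00 in lot 2 (1 array a group) and 2.18 in lot 3 (2 arrays a group).

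Sleep through the same hours left sr close to its ZT14 level. The sleeping 2 h arrays of sr read 6.20, 5.93 and 6.20, a difference of -0.02 ± 0.163 from ZT14. Deprived minus sleeping flies at 2 h therefore differed in sr by 2.14 ± 0.163 (limma adjusted p = 6.60e-07). Later in deprivation, sr stood at 7.20, 7.81 and 7.79 after 4 h and at 7.46, 7.41 and 7.12 after 6 h, all below the 3 arrays taken after 2 h.

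The active period arrays, which share no sample with these, gave sr values for waking at other hours. Ordinary waking over the 4 h that ended at ZT14 brought sr to 5.93, 5.97 and 6.22 in wake flies, against 6.80, 6.81 and 7.16 in ZT10 flies. That fall of sr was -0.88 ± 0.119 (limma adjusted p = 0.00810), and it missed the threshold without wake replicate 2 (adjusted p = 0.0893) or without ZT10 replicate 3 (adjusted p = 0.0564). Handling in the same 4 h left sr at 7.08, 7.08 and 7.42 in stimulated flies. It was 1.15 ± 0.119 higher than in wake flies (2.23-fold, limma adjusted p = 0.00142). Thus sr was lower in flies awake on their own at ZT14 than at ZT10, and higher in handled flies of both experiments. Whether handling or lost sleep goes with the rise at ZT16 cannot be told apart from these groups, since all deprived flies were handled.

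**Figure D1:**
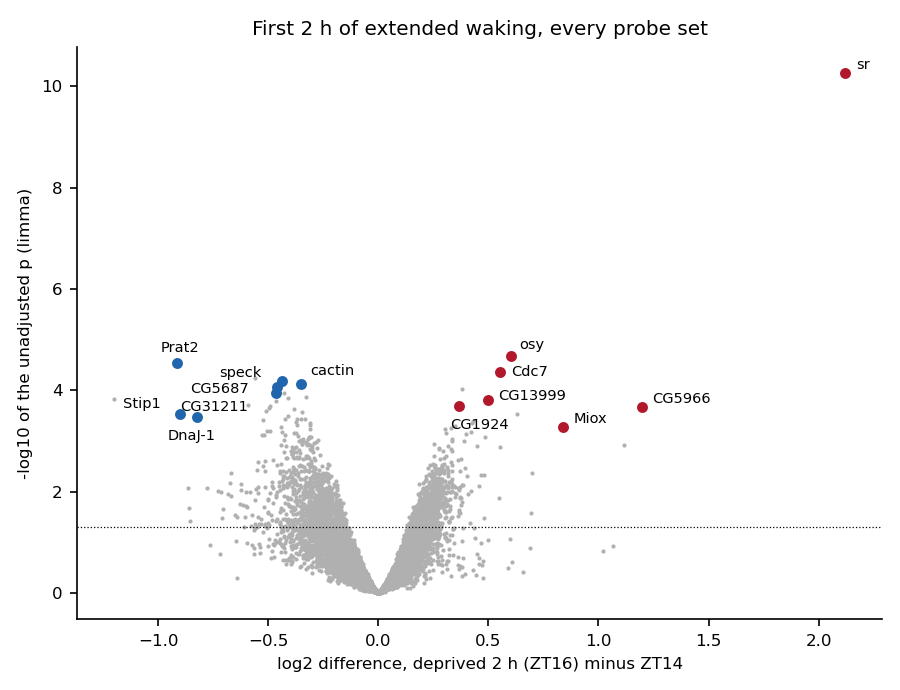
Each grey point is 1 of the 13966 probe sets, with the log2 difference of deprived 2 h minus ZT14 on the x axis and -log10 of the unadjusted limma p on the y axis; coloured points are named genes (red higher, blue lower) and the dotted line marks an unadjusted p of 0.05. The gene sr, at 2.12, lies apart from all other probe sets.

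Below sr, the genes with the smallest p on the high side did not pass the test. The gene osy, which encodes an ABC transporter, read 5.23, 5.64 and 5.52 in deprived 2 h arrays, against 4.95, 4.91 and 4.71 in ZT14 arrays. The groups of osy did not overlap, and the difference was 0.60 ± 0.11 (limma adjusted p = 0.133). Sleeping flies read 5.11, 5.16 and 5.14 for osy, also above all ZT14 arrays, with a difference of 0.28. Other probe sets of osy differed by 0.23 and 0.28.

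Cdc7 encodes the kinase that starts DNA replication. It read 5.27, 4.85 and 5.28 in deprived 2 h arrays, against 4.61, 4.54 and 4.59 in ZT14 arrays, with a difference of 0.55 ± 0.105 (limma adjusted p = 0.140). Its lowest deprived value came from replicate 2, and without that array the difference in Cdc7 was 0.70 (limma adjusted p = 0.00250). Sleeping flies showed a difference of 0.01 for Cdc7, and a further probe set of the gene gave 0.24 in deprived flies.

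CG13999 read 7.63, 7.70 and 7.68 in deprived 2 h arrays and 7.14, 7.12 and 7.27 in ZT14 arrays, a difference of 0.50 (limma adjusted p = 0.140). CG1924 read 3.21, 3.38 and 3.08 in deprived 2 h arrays and 2.81, 2.82 and 2.94 in ZT14 arrays, a difference of 0.37 (limma adjusted p = 0.148). Neither pair of groups overlapped, but in both genes the sleeping flies also lay above the ZT14 mean, by 0.11 for CG13999 and 0.14 for CG1924. The CG1924 readings lay well under 4.23, the upper bound of the 3615 genes with the lowest signal, which limits what its difference can show.

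Several genes with larger differences had wider spreads; they were picked out after their values were seen. CG5966, a predicted lipase, read 3.27, 3.60 and 4.69 in deprived 2 h arrays, against 2.65, 2.71 and 2.61 in ZT14 arrays, with a difference of 1.20 ± 0.263 (2.29-fold, limma adjusted p = 0.148). All deprived arrays of CG5966 lay above all sleeping arrays, which read 2.68, 2.81 and 2.83. The ZT14 and sleeping readings of CG5966 lay well under 4.23, near the low end of signal, which limits what its fold can show. Within chip lots the difference in CG5966 was 1.98 in lot 2 (1 array a group) and 0.81 in lot 3 (2 arrays a group). Miox, the myo-inositol oxygenase, read 5.67, 6.30 and 5.97 in deprived 2 h arrays and 5.01, 5.50 and 4.90 in ZT14 arrays, with a difference of 0.84 ± 0.202 (limma adjusted p = 0.177), against 0.07 in sleeping flies. CG15745 read 4.41, 3.77 and 4.47 in deprived 2 h arrays and 3.50, 3.66 and 3.60 in ZT14 arrays. Its difference of 0.63 (limma adjusted p = 0.159) became 0.86 without deprived 2 h replicate 2 (limma adjusted p = 0.00224). The gene rost, known in myoblast fusion, read 5.69, 7.14 and 6.11 in deprived 2 h arrays and 4.84, 5.46 and 5.30 in ZT14 arrays, where 1 deprived array stood far above the others. The difference in rost was 1.12 with all arrays and 0.70 without that array, replicate 2, against 0.37 in sleeping flies.

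Genes called by handling in the active period gave a second view of the same probe sets. Of the 11 probe sets called higher in stimulated than in wake flies, 0.0788% of those tested, 10 had a positive difference in deprived 2 h minus ZT14 and 5 had no overlap between the groups. Without overlap on the high side were 8.25% of all probe sets. Besides sr, these were CG5966 (0.57 in stimulated minus wake), Miox (0.59), CG13315 (0.74) and CG42807 (0.82). CG13315 read 9.18, 10.33 and 9.65 in deprived 2 h arrays, against 9.08, 9.05 and 8.93 in ZT14 arrays. Its difference was 0.70 ± 0.216 (limma adjusted p = 0.272), against -0.10 in sleeping flies. Without deprived 2 h replicate 2, the highest array, the difference in CG13315 was 0.40 (limma adjusted p = 0.374).

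The lowest p values among genes with less signal in deprived flies belonged to Prat2, speck, cactin, CG5687 and CG31211, and none passed. Prat2, which encodes the enzyme of the first committed step of purine synthesis, read 5.87, 6.39 and 5.83 in deprived 2 h arrays, against 7.16, 6.85 and 6.81 in ZT14 arrays. The difference was -0.91 ± 0.168 (0.531-fold, limma adjusted p = 0.133), and without deprived 2 h replicate 2, the highest deprived array, it was -1.09 (limma adjusted p = 0.00709). Sleeping flies lay between them for Prat2, at 6.55, 6.75 and 6.46, a difference of -0.36 from ZT14.

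The gene speck encodes an arylalkylamine N-acetyltransferase, which acetylates monoamines such as dopamine and serotonin. It read 7.58, 7.45 and 7.55 in deprived 2 h arrays and 7.94, 8.05 and 7.91 in ZT14 arrays, a difference of -0.44 (limma adjusted p = 0.140). Sleeping flies read 7.63, 7.64 and 7.68 for speck, a difference of -0.31 from ZT14, so the sleeping arrays too lay below all ZT14 arrays of speck. Deprived and sleeping flies differed by -0.12 in speck (limma adjusted p = 0.69).

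In cactin the sleeping flies stayed near ZT14. It encodes a protein known from splicing and from binding to Cactus, and read 5.29, 5.36 and 5.29 in deprived 2 h arrays against 5.66, 5.78 and 5.56 in ZT14 arrays. The cactin difference was -0.35 in deprived flies (limma adjusted p = 0.140) and -0.03 in sleeping flies. CG5687 had differences of -0.46 in deprived and -0.06 in sleeping flies, and CG31211 had -0.46 and -0.09, with no overlap between deprived and ZT14 arrays in either gene.

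**Figure D2:**
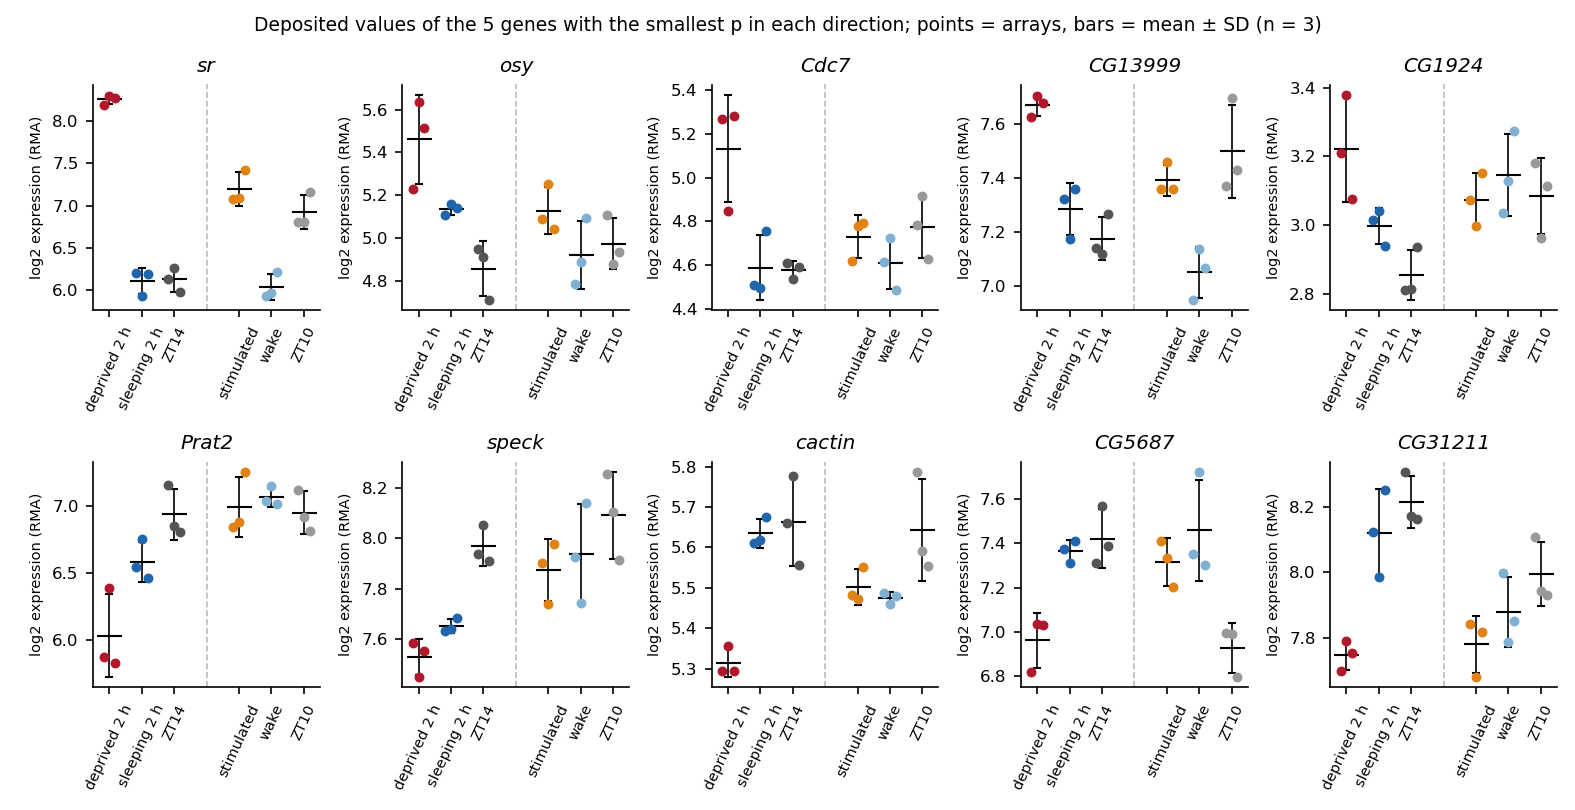
Log2 expression of the 5 genes with the smallest p on each side, with 1 point per array and bars for mean ± SD (n = 3); groups left of the dashed line are deprived 2 h, sleeping 2 h and ZT14, and those right of it are stimulated, wake and ZT10 of the other experiment. In sr the deprived arrays lie near 8.25 and all sleeping and ZT14 arrays near 6.1; in speck the sleeping arrays lie close to the deprived ones.

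The activity-regulated and immediate early genes, a list of transcription factors and signalling genes that neurons switch on after firing or that cells switch on under stress, leaned to the high side. Of the 23 on the array, 20 had positive differences, with a median of 0.18, against 0.02 over all 10844 genes. In 4 of the 23 (17.4%) the deprived arrays lay above all ZT14 arrays, against 8.05% of all genes, and in 0 below, against 6.67%. Only sr passed the test. In sleeping flies the median of the same list was -0.02.

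By array, the early gene list had medians of 0.27, -0.10 and 0.24 relative to the ZT14 mean in deprived 2 h replicates 1, 2 and 3. Replicate 2 thus lacked the shift in the list, although not in sr. Without that array, 17 of 23 early genes lay above all ZT14 arrays, against 13.2% of all genes with 2 deprived arrays, and the median difference was 0.26. The array left out was the one without the shift, so its removal alone raises these values and they add no support to the shift.

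Among the other early genes, puc, the phosphatase that is both a target and an inhibitor of JNK signalling, read 5.81, 6.38 and 6.03 in deprived 2 h arrays, against 5.76, 5.68 and 5.33 in ZT14 arrays. Its difference was 0.48 ± 0.151 (limma adjusted p = 0.272), against -0.01 in sleeping flies, and it was 0.33 without deprived 2 h replicate 2. CG14186 read 7.69, 6.45 and 7.77 in deprived 2 h arrays and 6.49, 6.85 and 6.49 in ZT14 arrays, with replicate 2 below every ZT14 array. The difference in CG14186 was 0.69 with all arrays (limma adjusted p = 0.325) and 1.12 without replicate 2 (limma adjusted p = 0.145). CG17778 had a difference of 0.38, against -0.28 in sleeping flies. The NR4A receptor gene Hr38, a standard activity marker in insects, read 3.16, 2.82 and 3.02 in deprived 2 h arrays and 2.88, 2.72 and 2.82 in ZT14 arrays, which overlapped, with a difference of 0.19. These Hr38 readings lay well under 4.23, the upper bound of the 3615 genes with the lowest signal, so a change could be missed. The AP-1 genes kay (-0.06) and Jra (-0.06), homologues of Fos and Jun, were close to 0.

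Cytosolic heat shock proteins and their co-chaperones leaned to the low side. Of 17 on the array, 12 had negative differences, with a median of -0.21. In 6 (35.3%) the deprived arrays lay below all ZT14 arrays, against 6.67% of all genes, and in 2 (11.8%) above, against 8.05%, and none passed the test. The list median was -0.08 in sleeping flies. Without deprived 2 h replicate 2 the median was -0.20 and 8 of 17 lay below all ZT14 arrays, against 13.7% of all genes.

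Stip1, the adaptor that passes clients between Hsp70 and Hsp90, read 5.41, 5.58 and 5.90 in deprived 2 h arrays, against 6.85, 6.42 and 6.33 in ZT14 arrays. The difference was -0.90 ± 0.205 (limma adjusted p = 0.159), and sleeping flies, at 6.37, 6.10 and 6.50, differed from ZT14 by -0.21. DnaJ-1, an Hsp40 co-chaperone, read 7.71, 7.01 and 7.93 in deprived 2 h arrays and 8.57, 8.38 and 8.18 in ZT14 arrays. Its difference was -0.83 ± 0.190 (limma adjusted p = 0.162), and -0.55 without replicate 2, the lowest deprived array. Deprived and ZT14 arrays did not overlap in either gene, and in both the highest ZT14 array was replicate 1.

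The nucleotide exchange factor gene Hsp110 differed by -0.43, the Hsp90 co-chaperone gene p23 by -0.35, and the constitutive chaperone gene Hsc70-4 by -0.41. In sleeping flies the differences were -0.21 for Hsp110, -0.08 for p23 and -0.28 for Hsc70-4. A pair of subunits of the TRiC chaperonin, chosen after their values were seen, had differences of -0.43 for CCT3 (limma adjusted p = 0.140) and -0.35 for CCT4 (limma adjusted p = 0.159). Against the direction of the list, stv, which encodes a BAG domain partner of Hsp70, differed by 0.30, and by 0.24 in sleeping flies. The small heat shock protein genes Hsp26 (-0.05) and Hsp27 (0.11) were near 0. In the stimulated flies of the active period, Stip1 and DnaJ-1 each differed from wake flies by -0.36, and neither passed.

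**Figure D3:**
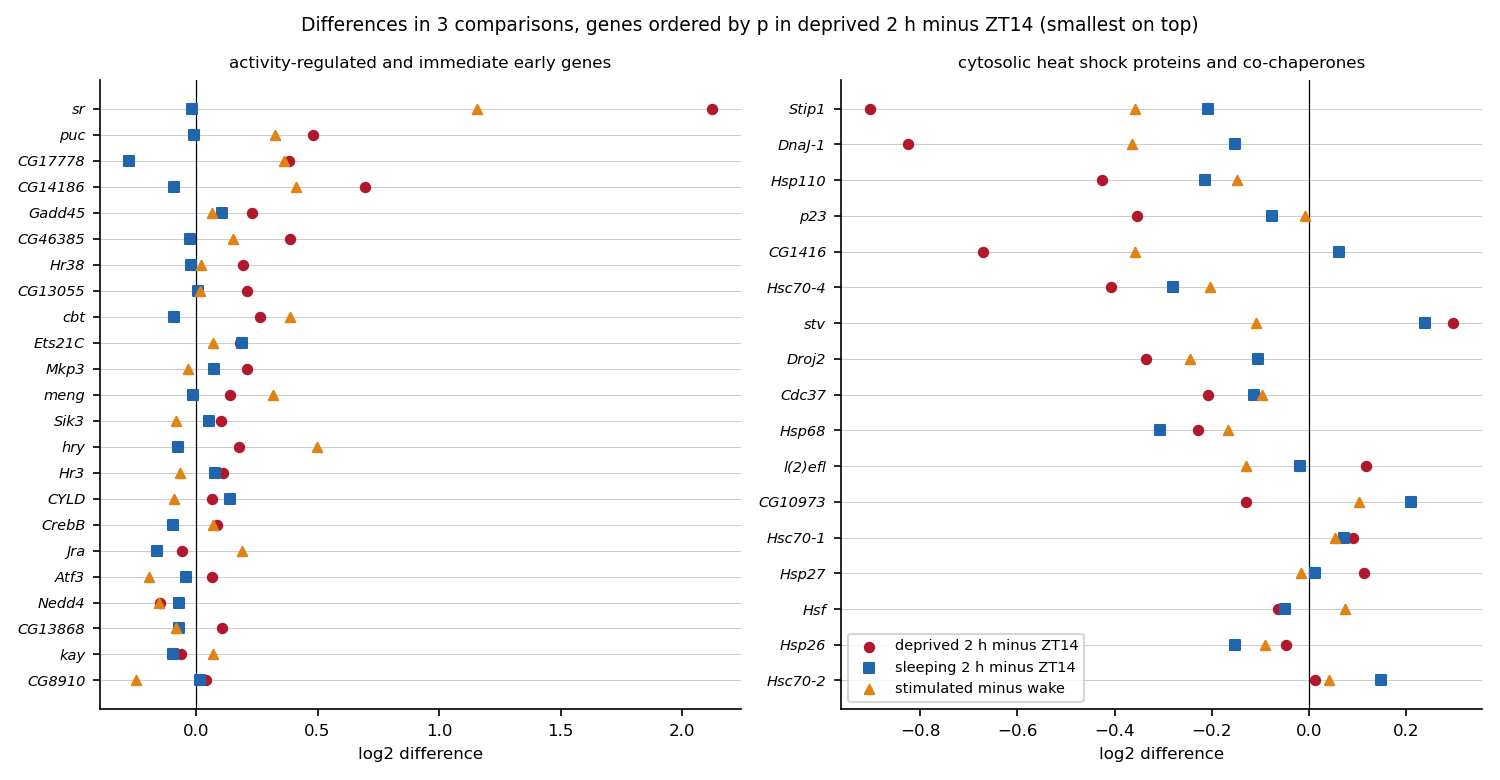
Log2 differences of each early gene (left) and each cytosolic chaperone gene (right), with red circles for deprived 2 h minus ZT14, blue squares for sleeping 2 h minus ZT14 and orange triangles for stimulated minus wake. Red circles lie to the right of 0 in 20 of 23 early genes and to the left in 12 of 17 chaperone genes.

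Endoplasmic reticulum chaperones and folding genes were on the same side as the cytosolic ones. Of 21 on the array, 20 had negative differences, with a median of -0.21, and in 4 (19%) the deprived arrays lay below all ZT14 arrays, against 6.67% of all genes. The list median was -0.06 in sleeping flies, and -0.18 in deprived flies without replicate 2. By array, the medians relative to the ZT14 mean were -0.31, -0.17 and -0.09 in deprived replicates 1, 2 and 3. They were 0.03, 0.04 and -0.12 in ZT14 arrays and -0.02, -0.17 and -0.03 in sleeping 2 h arrays, so the groups overlapped. The folding factor gene CaBP1 read 6.25, 6.29 and 6.28 in deprived 2 h arrays, against 6.67, 6.72 and 6.51 in ZT14 arrays, a difference of -0.36 (limma adjusted p = 0.212), against -0.15 in sleeping flies. P58IPK, a co-chaperone of BiP, differed by -0.31, and by -0.20 in sleeping flies. PEK, the stress sensor kinase also called PERK, differed by -0.39, by -0.17 without deprived 2 h replicate 2, and by -0.14 in sleeping flies. Hsc70-3, which encodes BiP itself, was the exception, at 0.12.

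The aminoacyl-tRNA synthetases, which load amino acids onto tRNAs, had negative differences in 27 of 31 genes. Their median was -0.12, against -0.04 in sleeping flies. In 10 (32.3%) the deprived arrays lay below all ZT14 arrays, against 6.67% of all genes, and in 0 above, against 8.05%. All 3 deprived arrays carried the shift, with list medians of -0.18, -0.12 and -0.09. AsnRS read 5.85, 6.28 and 6.00 in deprived 2 h arrays, against 6.59, 6.41 and 6.37 in ZT14 arrays. Its difference was -0.41 (limma adjusted p = 0.162), and -0.53 without deprived 2 h replicate 2 (limma adjusted p = 0.0236), against -0.15 in sleeping flies. LysRS differed by -0.28 in deprived flies and by 0.08 in sleeping flies.

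Other parts of the protein economy gave smaller values. Translation initiation and elongation factors had a median of -0.11, against -0.05 in sleeping flies. Of 43, 6 (14%) lay below all ZT14 arrays, against 6.67% of all genes, and 2 (4.65%) above, against 8.05%. The smallest p values of these factors belonged to subunits of eIF2B and eIF3. The medians of the factor list were -0.27, -0.04 and -0.01 in deprived replicates 1, 2 and 3. The list median was -0.03 without deprived 2 h replicate 1 and -0.02 without ZT14 replicate 2. The proteasome had a median of -0.07, against -0.03 in sleeping flies. In 7 of its 39 genes (17.9%) the deprived arrays lay below all ZT14 arrays, against 6.67% of all genes, and in 1 (2.56%) above, against 8.05%. By array, the proteasome medians were -0.24, 0.10 and -0.08 in deprived replicates 1, 2 and 3, so the arrays differed in sign and replicate 1 was lowest. Deprived replicate 2 was the highest of them, so its removal alone lowers the list values. Without it, the proteasome median was -0.16 and 18 of 39 (46.2%) lay below, against 13.7% of all genes with 2 deprived arrays. Its cap ATPase Rpt2 read 6.32, 6.17 and 6.24 in deprived 2 h arrays and 6.72, 6.44 and 6.56 in ZT14 arrays, a difference of -0.33 (limma adjusted p = 0.200), against -0.18 in sleeping flies. Mitochondrial ribosomal proteins depended on 1 array, with medians of -0.34, 0.19 and -0.11 in deprived replicates 1, 2 and 3. Of 64 of these genes, 3 (4.69%) lay below all ZT14 arrays with all deprived arrays, against 6.67% of all genes. Without replicate 2, 34 (53.1%) did so, against 13.7% of all genes, and the median was -0.24 instead of -0.09, against 0.01 in sleeping flies.

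The list values stood beside a shift with signal level. The 3615 genes with the highest signal had a median difference of -0.08, and 10.9% of them lay below all ZT14 arrays and 3.29% above. In the 3615 genes with the lowest signal the median was 0.07, with 2.43% below and 11.9% above. In sleeping flies the same sets had medians of -0.02 and 0.02. The shift was largest in deprived 2 h replicate 1, at -0.14 for the high-signal genes and 0.10 for the low-signal genes. It was -0.03 and 0.09 in replicate 2 and -0.03 and 0.01 in replicate 3. Arrays of other groups carried it too, at -0.05 and 0.06 in ZT14 replicate 3 and -0.05 and 0.07 in sleeping 2 h replicate 2. ZT14 replicates 1 and 2 went the other way, at 0.01 and -0.02, and 0.04 and -0.04. Above 5.81, the lower bound of the high-signal genes, lay the median levels of translation factors (6.86), mitochondrial ribosomal proteins (6.65) and endoplasmic reticulum chaperones (6.57). Those of the proteasome (6.43) and the cytosolic chaperones (5.84) did too. The synthetases, at 5.41, lay within the range of the 3614 genes of middle signal, with 6.67% below all ZT14 arrays and 8.99% above. The part of the shift with signal level in the list values was not tested.

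Some marker lists of tissues outside the brain lay on the high side. The median level was 3.49 for chemosensory genes, within the range of the 3615 genes with the lowest signal (up to 4.23). For the other lists it was 4.70 to 5.12, within the range of the 3614 genes of middle signal (4.23 to 5.81). Of 163 chemosensory genes, 27 (16.6%) lay above all ZT14 arrays and 0 below, and the same held for 19 of 113 genes of trachea and cuticle (16.8%), 5 of 20 of ovary and germline (25%) and 11 of 34 of gut and salivary gland (32.4%). Above all ZT14 arrays were 8.05% of all genes, 11.9% of the 3615 genes with the lowest signal and 8.99% of the 3614 genes of middle signal. Below all ZT14 arrays were 6.67%, 2.43% and 6.67% of the same sets. The medians of these lists were 0.13, 0.13, 0.15 and 0.17, against 0.03, 0.03, 0.04 and 0.04 in sleeping flies. Relative to the ZT14 mean, deprived replicates 1 and 2 stood at 0.14 to 0.25 in these lists. Deprived replicate 3 stood at 0.06, 0.06, 0.07 and 0.13, against 0.10, 0.10, 0.07 and 0.12 in ZT14 replicate 3. ZT14 replicates 1 and 2 stood at -0.09 to -0.004. The other marker lists of tissues outside the brain had lower medians, of 0.06 for 15 fat body genes, 0.02 for 17 muscle genes and -0.04 for 15 haemocyte genes. The log2 of the summed signal of the gut and salivary list was 10.81 to 10.94 in deprived 2 h arrays and 10.60 to 10.80 in ZT14 arrays, and that of the chemosensory list was 12.81 to 13.14 in deprived 2 h arrays and 12.87 to 12.96 in ZT14 arrays. Whether these values come with carried-over tissue was not tested.

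Brain cell markers gave another picture. The 11 neuron markers had a median difference of -0.34 over all arrays and -0.03 without deprived 2 h replicate 2. The neuronal RNA-binding protein gene elav read 5.72, 4.77 and 6.03 in deprived 2 h arrays, against 6.32, 6.69 and 5.70 in ZT14 arrays, which overlapped, and its difference was -0.73 with all arrays and -0.36 without replicate 2. The synaptic vesicle list followed it, with medians of 0.01, -0.44 and 0.01 in deprived replicates 1, 2 and 3. Glial markers had a median of -0.01.

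**Figure D4:**
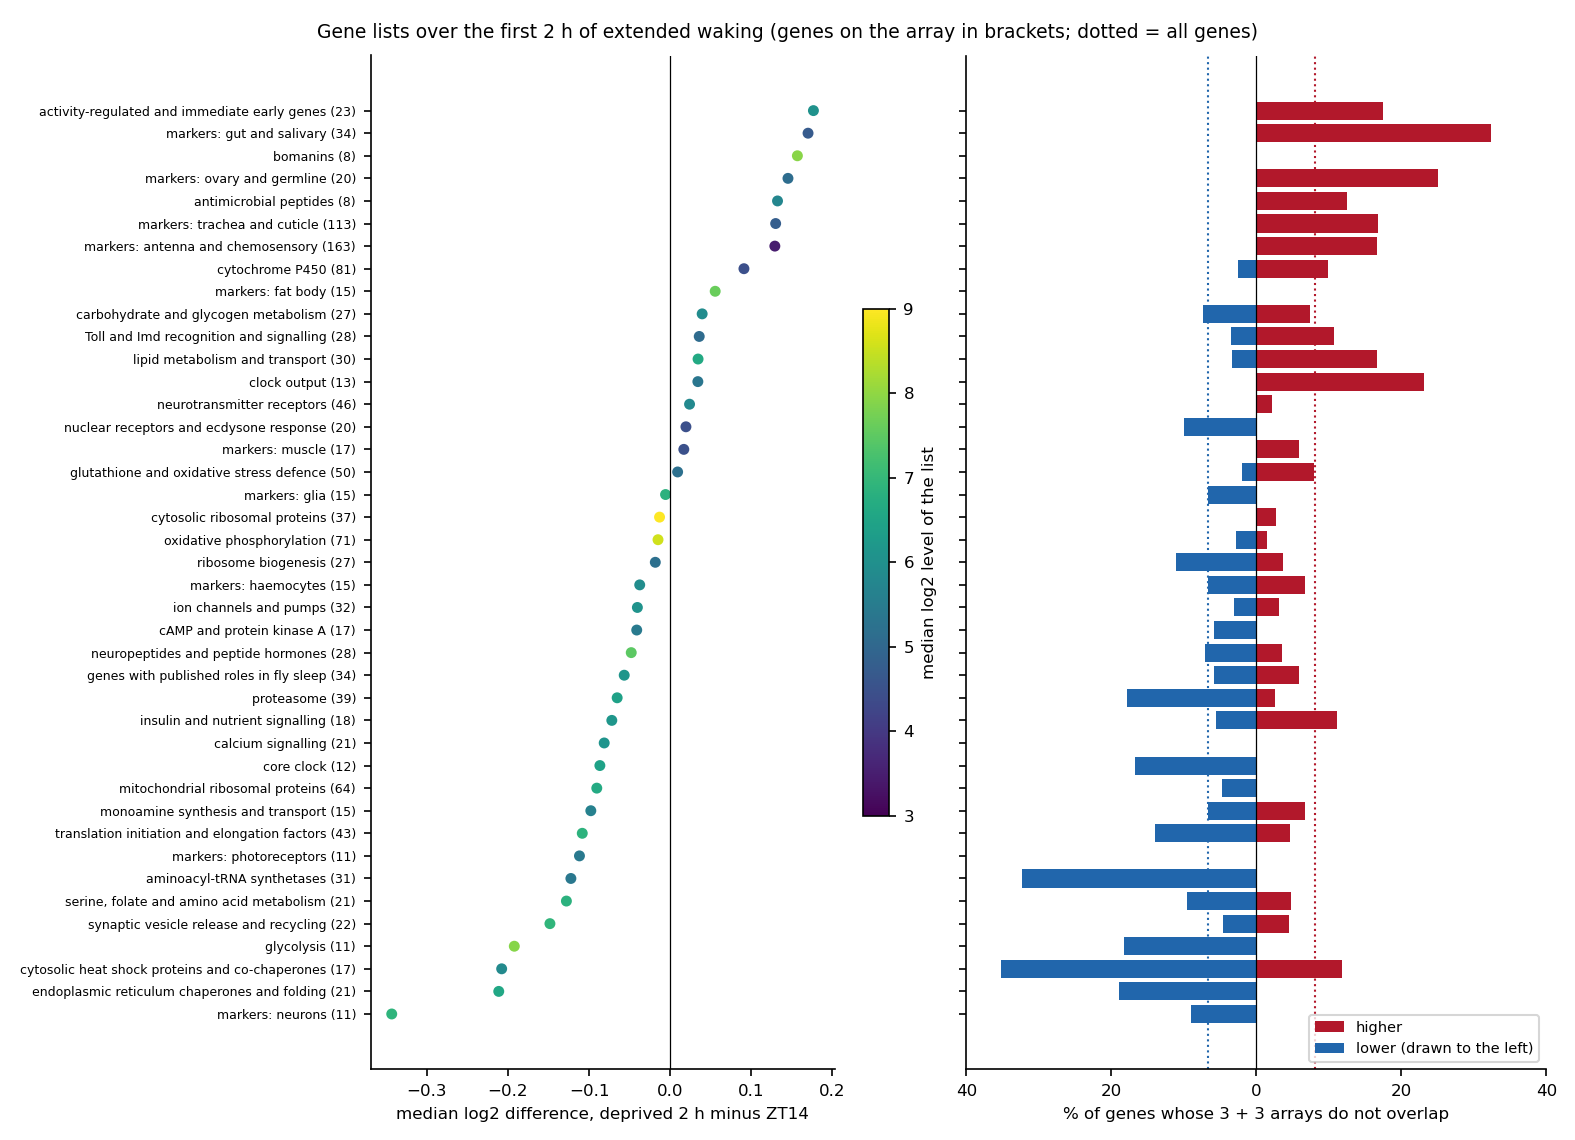
For each gene list (number on the array in brackets), the left panel gives the median log2 difference of deprived 2 h minus ZT14, coloured by the median signal of the list, and the right panel gives the percentage of genes whose 3 deprived arrays lie all above (red) or all below (blue, to the left) the 3 ZT14 arrays. The dotted lines mark all genes, at 8.05% above and 6.67% below; early genes have the highest median and neuron markers the lowest.

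The core clock was examined because 2 h of clock time passed. In the fly, Clk and cyc activate per, tim, vri and Pdp1, whose proteins feed back on them, and light resets the loop through cry and jet. Of 12 core clock genes, 11 had negative differences, with a median of -0.09, none passed, and 2 (16.7%) lay below all ZT14 arrays, against 6.67% of all genes. The list median was -0.06 in sleeping flies.

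Clk read 2.61, 2.51 and 2.53 in deprived 2 h arrays, against 2.70, 2.92 and 2.93 in ZT14 arrays, with no overlap. The difference was -0.30 (limma adjusted p = 0.203). Sleeping flies read 2.67, 2.57 and 2.63 for Clk, a difference of -0.22, and deprived and sleeping flies differed by -0.07. Over the 4 h before ZT14, wake minus ZT10 flies differed in Clk by -0.30 as well. Clk thus stood below ZT14 at ZT16 in deprived and sleeping flies alike, without passing the test in either. All Clk readings given here lay well under 4.23, the upper bound of the 3615 genes with the lowest signal, which limits what such differences can show.

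Most other clock genes were nearer to 0. The repressor genes per and tim differed by 0.05 ± 0.12 and -0.08 ± 0.14 in deprived flies, and by 0.05 and 0.08 in sleeping flies. The differences were 0.12 for per and -0.25 for tim without deprived 2 h replicate 2. In the 4 h before ZT14 the same genes differed by 0.32 for per and 0.49 for tim in wake minus ZT10 flies (limma adjusted p = 0.182 for per and 0.0545 for tim). The photoreceptor protein gene cry differed by -0.05 in deprived flies and by -0.46 in wake minus ZT10 flies. Pdp1 read 7.40, 6.76 and 7.76 in deprived 2 h arrays and 7.86, 7.77 and 7.62 in ZT14 arrays. Its difference of -0.44 was -0.17 without deprived 2 h replicate 2, the lowest array. The smallest difference was that of cwo, at -0.01, although a further probe set of cwo gave 0.22.

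Clock output genes with large differences in the 4 h before ZT14 were near 0 in the 2 h after it. The ebony gene e, for the enzyme that joins beta-alanine to dopamine, differed by -0.66 in wake minus ZT10 flies (limma adjusted p = 0.00234) and by 0.03 in deprived 2 h minus ZT14. The glucuronosyltransferase gene Ugt35B1 differed by -1.55 in wake minus ZT10 flies (limma adjusted p = 8.40e-06) and by -0.01 in deprived 2 h minus ZT14. Of the 9 probe sets called over those 4 h, 0.0644% of those tested and all lower, 6 had positive and 3 negative differences in deprived 2 h minus ZT14.

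**Figure D5:**
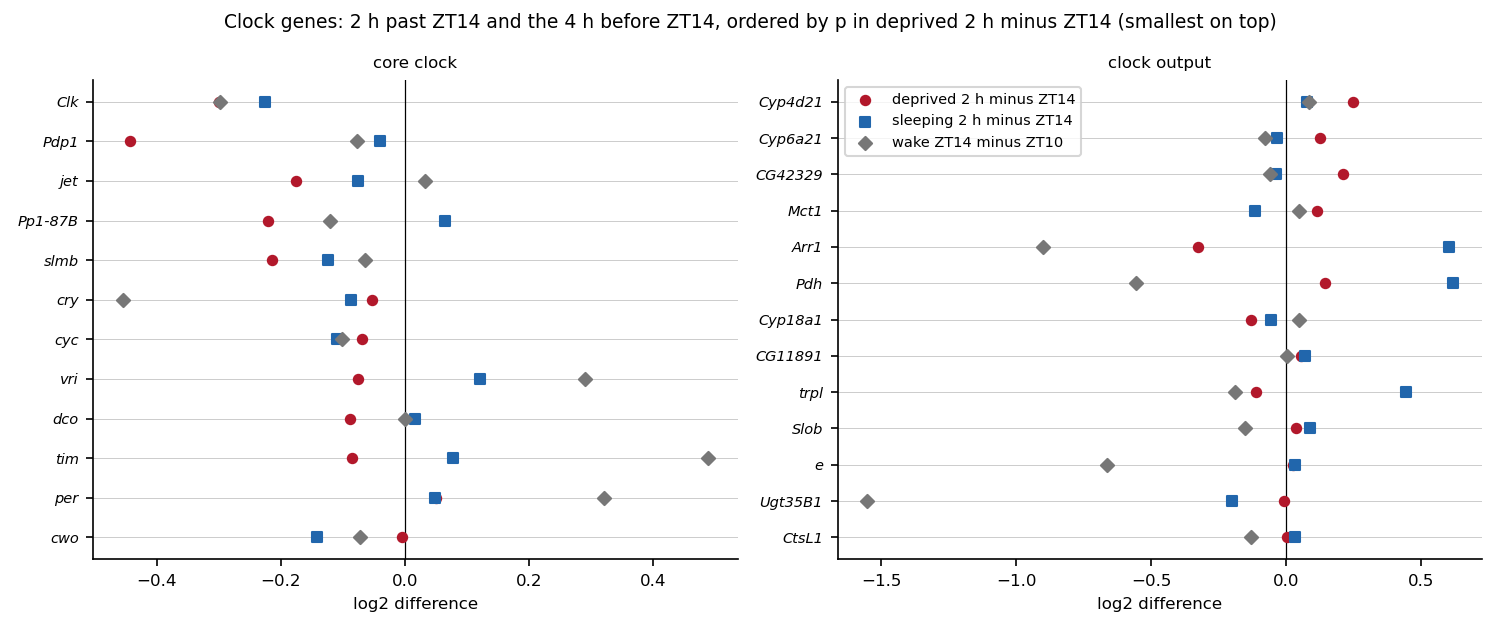
Log2 differences of each core clock gene (left) and clock output gene (right), with red circles for deprived 2 h minus ZT14, blue squares for sleeping 2 h minus ZT14 and grey diamonds for wake flies at ZT14 minus ZT10. Clk lies near -0.3 for deprived flies and near -0.2 for sleeping flies, while Ugt35B1 is at -1.55 before ZT14 and -0.01 after it.

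Immune genes showed no call over the first 2 h. Of 8 antimicrobial peptide genes on the array, 7 had positive differences, with a median of 0.13, against -0.07 in sleeping flies. The list medians were -0.06, 0.31 and 0.20 in deprived replicates 1, 2 and 3, and without replicate 2 the median was 0.03. The attacin gene AttD read 5.00, 5.10 and 5.14 in deprived 2 h arrays, against 4.69, 4.74 and 4.84 in ZT14 arrays, a difference of 0.33 (limma adjusted p = 0.275), against 0.10 in sleeping flies. The NF-kappaB factor gene Rel, which drives Imd pathway targets, read 5.58, 5.98 and 5.77 in deprived 2 h arrays and 5.47, 5.57 and 5.12 in ZT14 arrays, a difference of 0.39 (limma adjusted p = 0.270), against 0.04 in sleeping flies. Among the Toll pathway kinases, pll differed by -0.28, and by -0.15 in sleeping flies.

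The bomanins, short peptides of the Toll response, rested on 1 array. Their medians were -0.34, 0.77 and 0.08 in deprived replicates 1, 2 and 3, and the list median was 0.16 with replicate 2 and -0.14 without it. BomS5 read 9.07, 10.21 and 9.67 in deprived 2 h arrays, against 9.27, 9.66 and 9.19 in ZT14 arrays, which overlapped. Its difference was 0.27 with all arrays and -0.01 without replicate 2.

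Among metabolic genes, lipid genes lay on both sides. The 30 lipid genes had a median of 0.03, with 5 (16.7%) above all ZT14 arrays, against 8.05% of all genes, and 1 (3.33%) below, against 6.67%. Without deprived 2 h replicate 2 the median was -0.03, with 8 (26.7%) above and 6 (20%) below. Of all genes, 13.2% lay above and 13.7% below with 2 deprived arrays. The triglyceride lipase gene bmm read 7.02, 6.98 and 7.22 in deprived 2 h arrays, against 6.79, 6.81 and 6.54 in ZT14 arrays, a difference of 0.36 (limma adjusted p = 0.250) that was 0.09 in sleeping flies. The carnitine palmitoyltransferase gene whd differed by 0.31, and SREBP, the activator of lipid synthesis genes, by -0.30, against 0.07 for whd and -0.25 for SREBP in sleeping flies. The FoxO factor gene foxo, active when insulin signalling is low, differed by 0.23, and Akh, the peptide hormone that mobilises fat, by 0.47 (limma adjusted p = 0.422). Sleeping flies had 0.03 for foxo and 0.06 for Akh. The 11 glycolysis genes had a median of -0.19, with 10 negative, and -0.12 in sleeping flies.

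Detoxification genes gave both signs. The glutathione transferase gene GstD2 read 4.77, 4.90 and 4.61 in deprived 2 h arrays, against 4.28, 4.17 and 4.54 in ZT14 arrays, a difference of 0.43 (limma adjusted p = 0.162), against 0.16 in sleeping flies. GstD8 differed by 0.34, and by 0.20 in sleeping flies. Gclm, a subunit of the enzyme that starts glutathione synthesis, read 6.36, 7.22 and 6.68 in deprived 2 h arrays and 7.25, 7.34 and 7.02 in ZT14 arrays. Its difference was -0.45 (limma adjusted p = 0.272), and -0.68 without replicate 2, the highest deprived array (limma adjusted p = 0.0236), against -0.13 in sleeping flies. The list of 50 had a median of 0.01, and of -0.05 without replicate 2.

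Genes of neuronal signalling and sleep were not called either. The GABA receptor gene Rdl, which is known to promote fly sleep, read 8.20, 7.0 and 7.65 in deprived 2 h arrays, against 8.22, 8.59 and 8.05 in ZT14 arrays, which overlapped, with a difference of -0.67. Its lowest value was again that of replicate 2, without which the difference in Rdl was -0.36, and sleeping flies had -0.09. The protein kinase A anchor gene Akap200 read 8.34, 8.77 and 8.77 in deprived 2 h arrays and 9.05, 9.20 and 8.94 in ZT14 arrays, a difference of -0.43 (limma adjusted p = 0.274) against 0.07 in sleeping flies. The phosphoserine phosphatase gene aay read 6.81, 7.14 and 7.48 in deprived 2 h arrays and 6.94, 6.88 and 6.40 in ZT14 arrays, a difference of 0.41 against -0.20 in sleeping flies. Over the 34 genes with published roles in fly sleep the median was -0.06, with 2 above and 2 below all ZT14 arrays (5.88% each), against 8.05% and 6.67% of all genes. The median was 0.04 without deprived 2 h replicate 2, with 5 above and 5 below (14.7% each). With 2 deprived arrays, 13.2% of all genes lay above and 13.7% below.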

How the data were processed

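Whole-brain RNA was measured on Affymetrix Drosophila Genome 1.0 arrays. The deposited log2 values are the authors' RMA output, a single value for each probe set, as the series' design text states, and the affy package is named in the submitters' processing notes, with versions not given in the sources used here. RMA includes quantile normalisation, which hides shifts shared by most transcripts. Of 14010 probe sets, 44 controls were left out. The platform annotation gives 12443 probe sets 1 symbol, 327 several and 1196 none, and 12394 symbols were updated through RefSeq.

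Differences were fitted with limma 3.58.1 in R 4.3.3 on the 21 arrays of the deprivation experiment, and apart on the 9 of the active period, with Benjamini-Hochberg adjustment over 13966 probe sets. The code was tested on simulated data. The deposited scanner settings (other fields) were read for chip lot, scan day and hybridisation run. Lists take the brightest probe set of a gene and have no test. The comparison, the 41 lists and the naming rule were chosen with earlier results of these data known. The rule takes the 5 smallest p on each side where under 5 pass, every core clock gene and up to 4 genes per list by p. Alternatives changed the probe sets, normalisation, arrays, variance model, blocks, a 3′ to 5′ covariate, the threshold and each replicate.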

Additional observations from a re-analysis of the deposited data

Results flagged for a closer look

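The rise of sr differed between flies kept awake and flies that slept through the same 2 h. Against ZT14 it was 2.12 in deprived flies and -0.02 in sleeping flies, and the test of the difference itself, deprived 2 h minus sleeping 2 h, gave 2.14 ± 0.163 (limma adjusted p = 6.60e-07), with every deprived array above every sleeping array. The gene has 1 probe set on the array, so no second probe set bears on the value.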

How the results depend on the processing

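In deprived 2 h minus ZT14 the count of 1 became 10 with all 30 arrays in 1 fit, 550 with array weights, 2 with scan day as a block and 3 with the 3′ to 5′ covariate, where Cdc7 (0.60, limma adjusted p = 0.00133) and Prat2 (-0.95, limma adjusted p = 0.0394) joined sr. Leaving out 1 array gave 1 to 6, with 6 without deprived 2 h replicate 2, and 2 without deprived 2 h replicate 1, deprived 2 h replicate 3 or ZT14 replicate 3. In deprived minus sleeping flies the count of 1 became 429 with array weights and 2 with the covariate, and 1 to 5 without 1 array, with 5 without deprived 2 h replicate 2. In sleeping 2 h minus ZT14 the count of 0 became 278 with array weights. In wake minus ZT10 the count of 9 became 14 with median centring, 14 with trended and robust variance, 57 with the covariate, 16 with 1 probe set per gene and 19 at a threshold of 0.10, and 3 to 9 without 1 array, with 3 without wake replicate 2 or ZT10 replicate 3 and 4 without ZT10 replicate 1. In stimulated minus wake the count of 12 became 35 with only the 6 arrays compared, 2 with all 30 arrays and 5 with chip lot as a block, and 1 to 5 without 1 array, with 1 without wake replicate 2. The cause was not tested. Same-numbered deprived 2 h and ZT14 arrays did not go together, with correlations of -0.22, -0.15 and -0.50, against -0.16 to 0.47 between different numbers. Same-numbered deprived 2 h and sleeping 2 h arrays had correlations of -0.02, 0.44 and 0.41, against -0.50 to 0.28 between different numbers. In that comparison the same-numbered correlations were positive for replicates 2 and 3 and not for replicate 1. With 3 arrays a group these values are not independent of each other, and pairing by number was not tested. With a replicate block the counts were 1, 0, 1, 10 and 12, and sr stood at 2.12 (limma adjusted p = 4.84e-06). Hybridisation run and scan day blocks could not be fitted for the active period arrays. The medians of early genes, both chaperone lists and the synthetases kept their sign in all 20 alternatives, while that of the mitochondrial ribosomal proteins did so in 18 and that of the bomanins in 18. Precision is limited by the 3 arrays of a group.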

Other observations

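Photoreceptor genes, markers of eye tissue that may stay with a dissected brain, stood lower in deprived than in sleeping flies at ZT16. All 11 had negative differences in deprived 2 h minus sleeping 2 h, with a median of -0.22, and in 4 (36.4%) the deprived arrays lay below all sleeping arrays, against 5.21% of all genes; none passed the limma test. Against ZT14 the list median was -0.11 in deprived flies and 0.22 in sleeping flies. The arrestin gene Arr1 read 7.53, 8.23 and 7.46 in deprived 2 h arrays, 8.65, 8.63 and 8.72 in sleeping 2 h arrays and 8.70, 8.0 and 7.50 in ZT14 arrays, whose spread alone was wide. The phototransduction channel genes trp and trpl differed by -0.88 and -0.55 between deprived and sleeping flies, and Arr2 by -0.79.

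Cytochrome P450 genes, oxidases of steroid and toxin metabolism, had positive differences from ZT14 in 67 of 81, with a median of 0.09, against 0.01 in sleeping flies. The median over all genes was 0.02. In 8 (9.88%) the deprived arrays lay above all ZT14 arrays, against 8.05% of all genes, and in 2 (2.47%) below, against 6.67%. The median level of the list was 4.47, within the range of the 3614 genes of middle signal. Of those, 8.99% lay above and 6.67% below, with a median of 0.03, so the share of P450 genes above was near both shares. Without deprived 2 h replicate 2 the median was 0.03, with 10 (12.3%) above and 4 (4.94%) below. The shares of all genes with 2 deprived arrays were 13.2% above and 13.7% below. Cyp4g15 was among the lower ones, at -0.29, and Cyp4e1 among the higher ones, at 0.24.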
